A study of Drosophila melanogaster with 4 samples.

Results

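The assembled heterochromatin of the Drosophila melanogaster genome was examined for H3K36me2, dimethylation of lysine 36 on histone H3. In FlyBase r5, the build named in the file headers, this heterochromatin is given as 6 sequences, 2LHet, 2RHet, 3LHet, 3RHet, XHet and YHet, apart from the large arms X, 2L, 2R, 3L and 3R, chromosome 4 and the unplaced sequence U. The regions described here are the clusters on these 6 sequences, a cluster being a region that the authors' combined list of the replicate set names as enriched. They were chosen by sequence name alone, and numbered 202 of the 6396 clusters in that list.

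Chromatin immunoprecipitation and sequencing (ChIP-seq) had been performed in ML-DmBG3-c2 cells, a line derived from the central nervous system at the third instar larval stage, with the genotype y v f mal and unknown sex. Groups were 2 ChIP samples, made with the mouse monoclonal antibody 2C3 against H3K36me2, and 2 samples of input DNA from the same line. Formaldehyde-fixed chromatin was sheared by sonication. Each ChIP replicate has a cluster list, and the inputs have none, so that no group of samples could be set against another and no test over samples was possible. Titles and descriptions of the samples disagree in places, since the description of ChIP replicate 1 reads input DNA and those of ChIP replicate 2 and input replicate 1 mention both kinds, and titles were followed here. All cells came from a single line, so a value below holds for that line only.

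Pericentric heterochromatin is rich in repeats and transposon remnants, is marked by H3K9 methylation and the protein HP1, and also contains scattered active genes, many of them with long introns. H3K36me2 is placed by the methyltransferases Ash1 and Mes-4 and is usually found over active or recently active genes. Reads from repeats often match several places, so the share of a heterochromatin sequence in which reads can be placed is usually smaller than on the arms. Gene models of r5 were not used here, and the clusters are therefore described by position alone.

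The 202 clusters covered 1415.7 kb, or 15.3%, of the 9281.78 kb of heterochromatin, against 23.1% of the large arms. In the replicate lists the covered share was 14.1% and 12.7% of heterochromatin, with a mean of 13.4% ± 0.997, and 20.8% and 19.9% of the large arms, with a mean of 20.3% ± 0.600 (SD, n = 2 each). The difference between heterochromatin and the arms was thus larger than the spread between the replicates. Nothing in the labels says that the replicates were separate cultures, so this spread may be technical. No region named as a depletion lay on these sequences.

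The clusters were divided very unequally between the 6 sequences. 2RHet held 94, 3LHet 70, 3RHet 23, XHet 8, 2LHet 6 and YHet 1. Clusters covered 22.2% of 2RHet, 18.0% of 3LHet, 13.2% of XHet, 12.7% of 2LHet, 5.92% of 3RHet and 0.288% of YHet. 2RHet alone held 51.7% of the covered bases on 35.4% of the sequence, whereas 3RHet, with 27.1% of the sequence, held 10.5% of them. The mean covered share over the replicates was 19.6% ± 1.61 for 2RHet, 15.7% ± 0.991 for 3LHet, 11.9% ± 0.504 for 2LHet, 10.8% ± 1.43 for XHet and 5.06% ± 0.376 for 3RHet (SD, n = 2). 2LHet and XHet lay within their spread of one another, and the other neighbours in that order lay further apart than their SDs.

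Heterochromatin clusters were more often very long and also more often very short than those of the arms. The median length was 3147 bp, against 2874 bp on the large arms. In heterochromatin, 40 of 202 clusters (19.8%) had 10 kb or more, against 8.92% of arm clusters, and held 63.0% of the covered bases, against 33.5% on the arms. At the other end, 31 clusters (15.3%) fell short of 1301 bp, the minimum found in both replicate lists, where the share was 6.67% on the large arms and 6.94% over the whole combined list.

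Each cluster carries a score from the authors' region caller, and the arithmetic behind it could be read from the values. Every score in a list equalled 1 constant of that list plus the log2 of a ratio of 2 whole numbers, for 6396 of 6396 scores in the combined list, 5554 of 5554 in replicate 1 and 5583 of 5583 in replicate 2, within a relative tolerance of 1e-13. With the constant moved by an arbitrary amount, only 5, 3 and 2 scores did so. A move by the log2 of a small whole-number ratio would keep the match, so the match does not fix the constant. A score is therefore a log2 ratio, and a score difference of 1 within a list is a 2-fold difference in that ratio. The files do not name the whole numbers, which are known only after common factors have cancelled, and no source used here says whether they are read counts. The first number of a cluster therefore stands for the upper part of its ratio and the second for the lower part. Both are in lowest terms for the constant taken, a score repeated in the list that gave small whole numbers. Another constant that fits can change them, so they are not on one scale between lists.

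Longer clusters scored higher, so scores were compared within length classes, 5 classes cut at the quintiles of the large-arm clusters of the same list. Across clusters, length and score had a Spearman rho of 0.58 in heterochromatin (n = 202) and 0.84 on the large arms (n = 5963), given as a description, since neighbouring clusters share libraries and sequence. The median heterochromatin cluster scored 0.26 above the large-arm median of its class in the combined list, 0.19 above it in replicate 1 and 0.26 above it in replicate 2. In all, 145 of 202 clusters (71.8%) lay above that median, where the share over all sequences was 51.4%. In replicate 1 it was 113 of 171 (66.1%, background 51.1%), and in replicate 2 it was 126 of 163 (77.3%, background 51.4%).

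The difference was largest in the shortest class of the combined list, but its order over the classes was not the same in the replicates. In the shortest class, up to 1811 bp, the median of the differences was 0.39 and 51 of 53 clusters were above the arm median. It was 0.18 in the next class, 0.13 in class 3 and 0.01 in class 4, where 15 of 29 clusters were above. In the longest class, from 6114 bp upward, it was 0.19, with 40 of 64 above. From the shortest class to the longest, the median was 0.28, 0.24, 0.15, −0.03 and 0.11 in replicate 1, and 0.23, 0.30, 0.12, 0.26 and 0.27 in replicate 2. Length was not fully matched in the longest class, which has no upper limit. Among its combined-list clusters that overlap a cluster of both replicates, the median length was 13469 bp in heterochromatin and 9447 bp on the arms. Against the 100 arm clusters nearest in length, the combined-list difference over all classes was 0.20. The plot of score against length shows how the clusters spread to both sides of the arms.

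**Figure D1:**
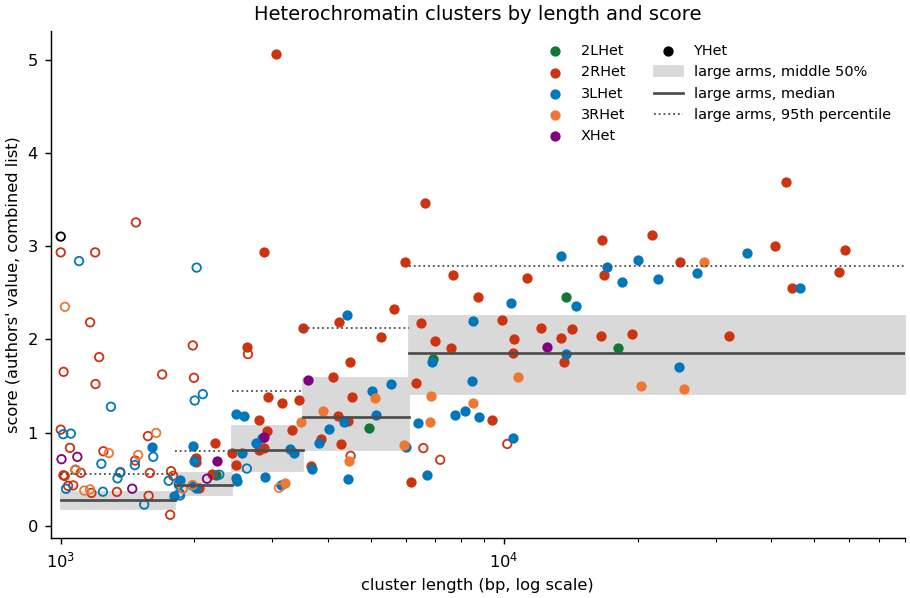
Score of the 202 heterochromatin clusters in the combined list (vertical axis, authors' log2 score) against their length (horizontal axis, bp, log scale), coloured by sequence; filled points overlap a cluster in both replicates and open points do not. Grey bands are the middle 50% of large-arm clusters in each of 5 length classes, solid lines their medians and dotted lines their 95th percentiles. Short open points lie far above the arm band, up to 3.26, and the highest point, 5.07, is a filled 2RHet cluster.

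The sequences differed in how far their clusters stood from the arms, and 2RHet stood highest of those with more than 1 cluster. Its median difference was 0.31 in the combined list, 0.45 in replicate 1 and 0.42 in replicate 2, a replicate mean of 0.44 ± 0.02 (SD, n = 2), and 79 of its 94 clusters were above the arm median. It was positive in each of the 5 length classes of the combined list, between 0.21 and 0.52. Of the 26 clusters of 2RHet in the shortest class, however, 19 overlapped no cluster of either replicate, and none overlapped clusters of both. In 3LHet the values were 0.10 in the combined list, 0.15 in replicate 1 and 0.24 in replicate 2, a mean of 0.19 ± 0.06 (SD, n = 2). The 3LHet difference was 0.35 in its 21 longest-class clusters, but only 11 of them were above the arm median, with differences from −1.31 to 1.08. It was 0.37 in its 15 shortest, of which 12 overlapped no cluster of either replicate. In class 3 it was −0.03 and in class 4 −0.09.

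3RHet showed no such excess. Its median difference was −0.0034 in the combined list, −0.24 in replicate 1 and 0.0071 in replicate 2, and 11 of 23 clusters lay above the arm median. The replicate spread of 3RHet, an SD of 0.17 about a mean of −0.11, was larger than its distance from 0. Its 7 shortest-class clusters were all above the arm median, with a median difference of 0.48, whereas 6 of its 7 longest-class clusters were below it, with a median of −0.39. None of the 7 shortest overlapped clusters of both replicates, and all 7 of the longest did. The 8 XHet clusters were all above their class medians in the combined list, by 0.06 to 0.46, and the median difference was 0.20 there, 0.10 in replicate 1 and 0.11 in replicate 2. The 6 clusters of 2LHet had a median of 0.08 in the combined list, but −0.13 in replicate 1 and −0.05 in replicate 2. For comparison, clusters of the unplaced sequence U had a median difference of 0.80 in the combined list, and those of chromosome 4 had −0.09.

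**Figure D2:**
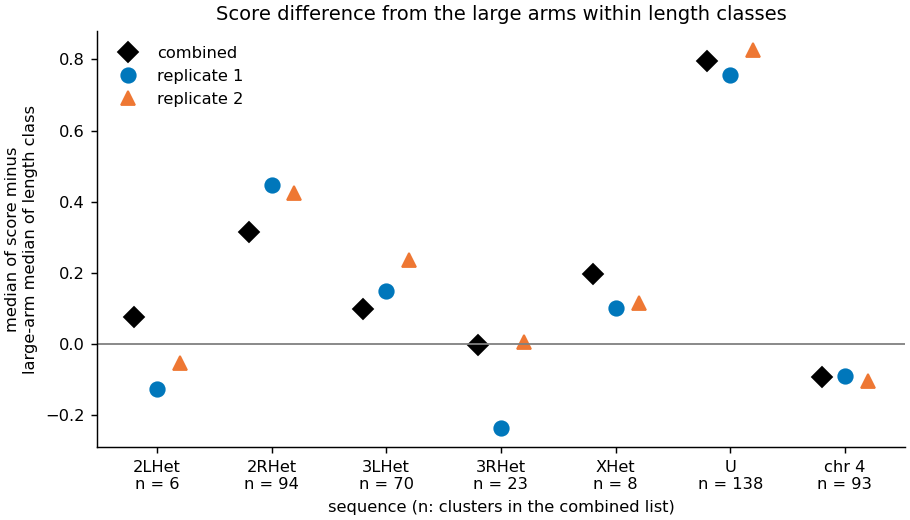
Median over clusters of the score minus the large-arm median of the same length class (vertical axis, log2 units), for each heterochromatin sequence except YHet, which has 1 cluster, and for U and chromosome 4; the line at 0 is the large-arm level. Diamonds stand for the combined list, circles for replicate 1 and triangles for replicate 2. 2RHet lies between 0.31 and 0.45 in all 3 lists, 3LHet between 0.10 and 0.24, and 2LHet and 3RHet on both sides of 0.

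At the upper extreme, 62 of 202 clusters (30.7%) scored above the 95th percentile of large-arm clusters of their class, where the share over all sequences was 7.11%. 2RHet held 35 of them (37.2% of its clusters), 3LHet 17 (24.3%) and 3RHet 6 (26.1%). On the unplaced sequence U the share was 63.0% (87 of 138), and on chromosome 4 it was 6.45%. The clusters above the percentile in heterochromatin were not 1 kind of region. Of the 62, 22 overlapped a cluster in both replicates, with medians of 6318 bp in length and 2.84 in score. Another 27 overlapped none in either replicate, with medians of 1111 bp and 0.99.

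The 5 clusters farthest above the arm median of their class were no longer than 3067 bp. The farthest, 2RHet:1534199-1537265, scored 5.07 in the combined list, 4.70 in replicate 1 and 4.30 in replicate 2, the highest heterochromatin score in each list. Its ratio was 35 to 2 in the combined list, 21 to 1 in replicate 1 and 14 to 1 in replicate 2. Each is in its lowest terms and holds for its own list's constant. The next, 2RHet:1071626-1073104, scored 3.26, with a ratio of 5 to 1, and was found in replicate 1 alone. The single YHet cluster, YHet:154776-155776, is 1001 bp long, scored 3.11 with a ratio of 9 to 2, and was found in neither replicate. The remaining ones, 2RHet:1096335-1097335 and 2RHet:1465581-1466777, had the identical score 2.94, a ratio of 4 to 1, and neither was found in a replicate.

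Among the 5 farthest below, all in the longest class, positions on 2RHet predominated. 2RHet:333764-339947 scored 0.47, which is 1.38 below its class median, and 3LHet:1569317-1576004 scored 0.54, which is 1.31 below. Both were found in both replicates, each as 2 shorter clusters. The other members, 2RHet:2307604-2314783, 2RHet:2323723-2330297 and 2RHet:2340447-2350613, scored 0.71, 0.83 and 0.88, and were found in replicate 1 alone.

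Second numbers, taken per kb, were smaller in heterochromatin in every list. Per kb of cluster, the median second number was 95.5 in heterochromatin and 233 on the large arms in the combined list, 47.3 and 96.9 in replicate 1, and 44.8 and 97.1 in replicate 2. Not taken per kb, the median second number in the shortest class of the combined list was 50 in heterochromatin and 319 on the arms. In the longest class it was 2399 in heterochromatin and 2311 on the arms. A cut at 20 depends on the constant taken. Over all classes, second numbers were below it in 27 of 202 clusters (13.4%), against 2.15% of arm clusters and 2.92% of all. In replicate 1 the share was 11.7% in heterochromatin and 3.20% on the arms (4.11% of all), and in replicate 2 it was 15.3% and 2.97% (3.94% of all). Cancelled factors and the constant of a list both bear on single values. 2RHet:1538805-1541687 has 4 to 1 in the combined list and 23 to 4 in each replicate, where its scores are 2.83 and 3.01.

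**Figure D3:**
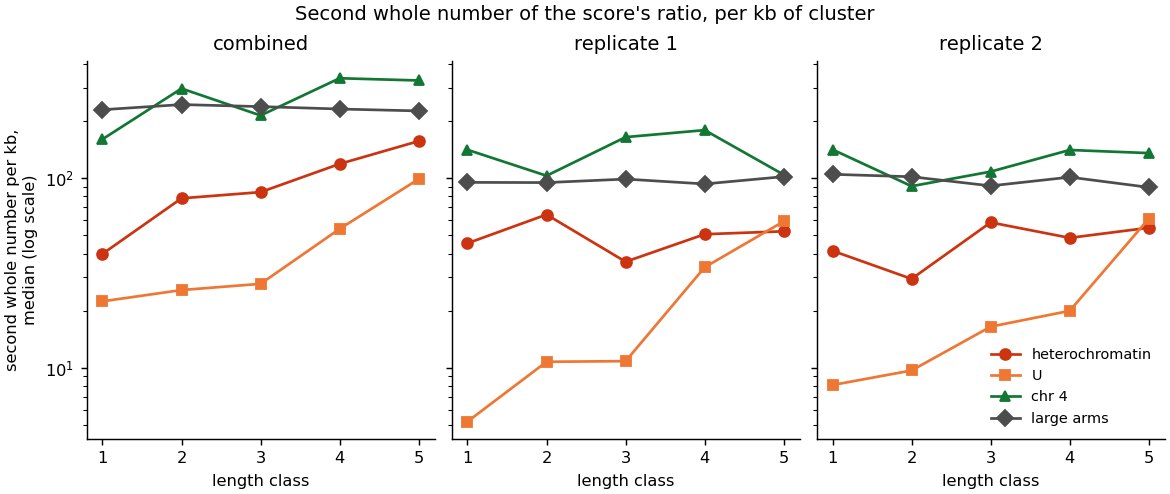
Median second whole number of the score's ratio per kb of cluster (vertical axis, log scale) in each of 5 length classes (horizontal axis, shortest to longest), for heterochromatin, U, chromosome 4 and the large arms, in the combined list and in each replicate. The heterochromatin line lies below that of the large arms in every class of all 3 lists, and the line of U lies below heterochromatin in the first 4 classes.

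Within heterochromatin, second numbers also differed between kinds of cluster, though these differ in length and the second number is itself part of the score. Per kb, the median was 29.2 in the 62 clusters above the arm 95th percentile and 130 in the other 140, whose median lengths were 1614 bp and 4172 bp. Among the 62, the 22 found in both replicates had a median of 64.3 per kb and a median second number of 518, against 527.5 in the 140. The 27 found in neither had 13.8 per kb and a median second number of 15. Clusters whose second number is below 20 were then left out of heterochromatin and arms alike. Of the remaining heterochromatin clusters, 116 of 175 (66.3%) were above the arm median of their class, and the median difference was 0.19. The share over all sequences was not computed for this set. Leaving out small second numbers removes high scores by construction, and the part of these numbers in the score difference was not tested.

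Each cluster was looked up in the replicate lists, an overlap of 1 bp or more counting as found. Of the 202 clusters, 131 (64.9%, Wilson 95% interval 58.0 to 71.1%, counting error only) were found in both replicates, where the share over all sequences was 73.4%. A further 24 (11.9%) were found in replicate 1 alone, against 8.67% on the large arms and 8.72% over all sequences. In replicate 2 alone 4 (1.98%) were found, against 7.68% on the large arms and 7.50% over all sequences. The remaining 43 (21.3%) were in neither, against 9.98% on the large arms and 10.4% over all sequences. Short clusters made up most of these: 29 of the 31 clusters shorter than 1301 bp were in neither (93.5%), against 80.9% on the arms and 82% over all sequences, and the replicate lists hold no cluster that short. In the shortest class 73.6% were in neither, against 46.8% on the arms. Length was not matched within that class, where 31 of 53 heterochromatin clusters and 398 of 1193 arm clusters were shorter than 1301 bp. From class 3 upward, 90.0%, 96.6% and 95.3% were found in both, against 91.5%, 97.1% and 99.5% on the arms.

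**Figure D4:**
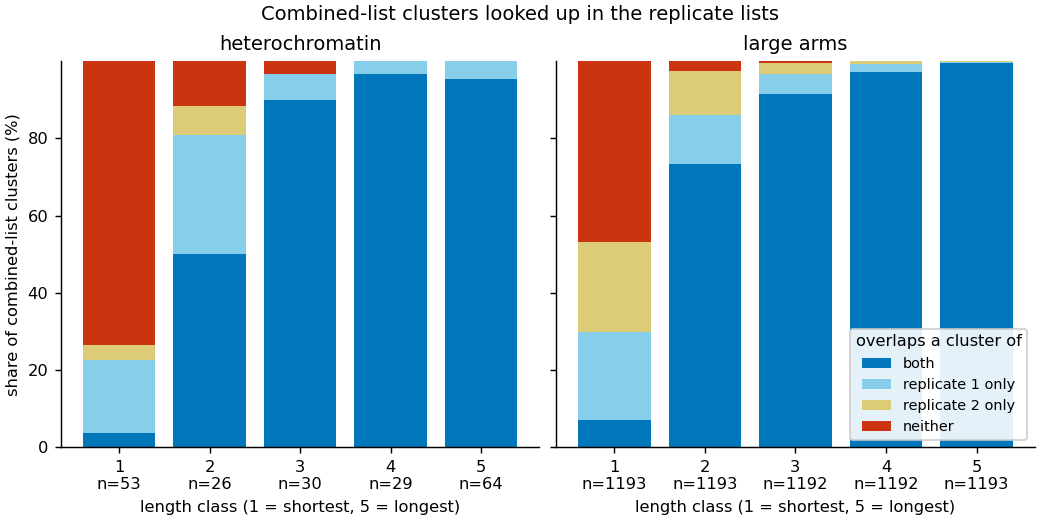
Share of combined-list clusters (vertical axis, %) that overlap a cluster of both replicates, of replicate 1 only, of replicate 2 only or of neither, by length class (horizontal axis, shortest to longest), in heterochromatin (left) and on the large arms (right). In the shortest class 73.6% of heterochromatin clusters are in neither list, against 46.8% on the arms, and from class 3 upward at least 90.0% are in both.

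Clusters of both replicates shared 1142.95 kb of heterochromatin. This was 87.5% of the bases of replicate 1, against 88.7% on the arms, and 97.3% of those of replicate 2, against 92.5% on the arms. It was 85.5% of their union, against 82.8% on the arms. Of the 171 replicate 1 clusters, 143 (83.6%) overlapped one of replicate 2, against 89.1% on the arms and 89% over all sequences. Of the 163 replicate 2 clusters, 156 (95.7%) overlapped one of replicate 1, against 90.5% on the arms and 90.7% over all sequences. For the 131 clusters found in both, replicate scores had a Pearson r of 0.96 and a Spearman rho of 0.95, with a median absolute difference of 0.14, as a description over clusters that share these 2 libraries. Outside the combined list lay 4 of the 171 replicate 1 clusters, against 50 of 5185 on the arms. For replicate 2 it was 1 of 163, against 29 of 5223 on the arms.

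The score comparison was also limited, in heterochromatin and on the arms, to clusters found in both replicates. Of 131 in heterochromatin, 82 (62.6%) lay above the arm median of their class, with a median difference of 0.12. Arm clusters lie about evenly on both sides of that median by definition, and the share over all sequences was not computed for this set. The median difference for clusters found in both was 0.31 in 2RHet, 0.00048 in 3LHet and −0.36 in 3RHet. The 3LHet median was thus near 0 without the less well replicated clusters. All 21 of its longest-class clusters, with their median of 0.35 before this limit, were found in both, and 11 of them were above the arm median. 3RHet was below the arms under this limit, and the value of 2RHet was 0.31 with and without the less well replicated clusters.

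Clusters also lay in runs, defined as 3 or more clusters with gaps of at most 5 kb. There were 22 runs with 88 of the 202 clusters (43.6%), where the share over all sequences was 63.3%, and it was 64.9% on the large arms, 81.7% on chromosome 4 and 13.0% on U. 2RHet held 12 of the runs and 3LHet 6. All 8 XHet clusters stood in 2 runs. The median gap between neighbouring clusters was 6.70 kb in heterochromatin and 3.41 kb on the large arms. In the replicate lists, 50.3% and 49.7% of heterochromatin clusters stood in runs, against 54.2% and 56.2% on the arms, so the distance to the arms was smaller there than in the combined list.

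Each run was looked up in the replicate lists. Of the 22, 20 held a cluster of each replicate (90.9%), against 99.4% of arm runs and 99.2% of all runs. A run stood there in replicate 1 for 16, in replicate 2 for 13 and in both for 11 (50%), against 62.2% of arm runs and 61.9% of all. In 10 runs (45.5%) every cluster was found in both replicates, against 29.5% of arm runs and 29.9% of all. That share also depends on how many clusters a run holds. Heterochromatin had 88 clusters in 22 runs, and the arms had 3869 in 835, which is more per run. In heterochromatin, 16 runs were covered over more than 50% of their span by each replicate list.

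The longest run, 2RHet:2848349-2936300, spans 88.0 kb with 4 clusters that cover 93.3% of it, and replicate clusters covered 91.2% and 85.2%. By the same definition, a run stood there in replicate 2 but not in replicate 1. The first clusters of the combined-list run, 32220 bp and 44512 bp long and 53 bp apart, scored 2.04 and 2.56. In replicate 1 a single cluster of 75499 bp covered all of the first and most of the next, whose end lay in a separate cluster. Another, of 1016 bp, was in neither replicate.

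The run 2RHet:1534199-1622032 spans 87.8 kb with 7 clusters, all found in both replicates and all above their class median. It begins with the highest-scoring cluster and holds 2RHet:1543138-1586374, which is 43237 bp long. That cluster scored 3.69 in the combined list, 3.73 in replicate 1 and 3.72 in replicate 2. Its ratio was 44677 to 6604 in the combined list, 22957 to 2146 in replicate 1 and 21721 to 2314 in replicate 2. Each holds for its own list's constant, and a high score stood here on large numbers. The other clusters of the run scored between 2.17 and 3.47.

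The longest 3LHet run, 3LHet:2409724-2482882, spans 73.2 kb with 4 clusters, covered over 90.7% by replicate 1 and 83.0% by replicate 2. It opens with the highest-scoring cluster of 3LHet, 3LHet:2409724-2445097, with a score of 2.93 in the combined list, and closes with clusters that scored 1.17 and 0.84. That first cluster stood as 2 clusters in replicate 1, scoring 2.98 and 1.85, and as 4 in replicate 2, scoring 3.03, 1.57, 2.02 and 1.70. Nearby, 3LHet:2221481-2289453 spans 68.0 kb with 3 clusters, of which 3LHet:2242999-2289453, at 46455 bp the longest on 3LHet, scored 2.56. Scores therefore varied widely inside a run, from 1.19 to 2.56 in that one. Here too a run stood in replicate 2 but not in replicate 1. The remaining long run, 2RHet:3199303-3264087, spans 64.8 kb with 6 clusters that scored between 0.53 and 3.12, of which 4 were in both replicates and 2 in neither.

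A run farther down in length, 2RHet:2304949-2359936, was the least alike in the replicates among the 7 longest. This run, named after its values were seen, spans 55.0 kb with 8 clusters scoring between 0.57 and 1.38. Replicate 1 clusters covered 72.4% of it and replicate 2 clusters 10.2%. It holds the 3 clusters on 2RHet named above as found in replicate 1 alone and far below their class median.

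**Figure D5:**
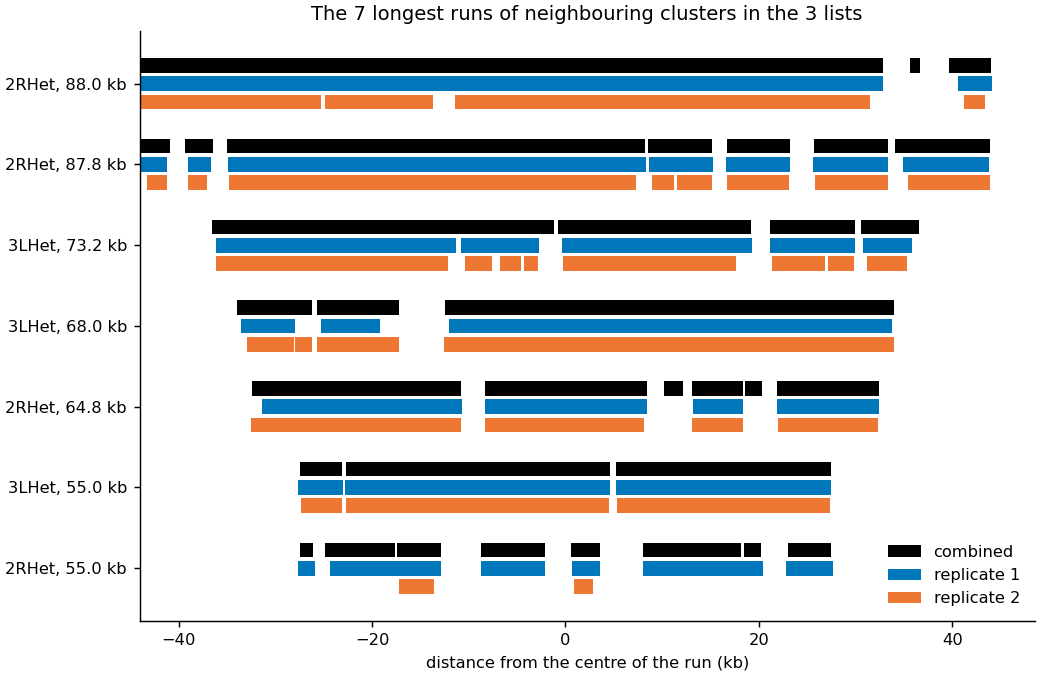
The 7 longest runs of heterochromatin clusters, each centred on its midpoint (horizontal axis, kb from the centre), with clusters of the combined list, replicate 1 and replicate 2 as bars from top to bottom in each row. In the upper 6 runs the replicate bars follow the combined bars except for 1 short cluster of the first run and 2 of the fifth, which have no replicate bar. In the lowest, a 2RHet run of 55.0 kb, replicate 1 covers 72.4% and replicate 2 covers 10.2%.

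The remaining longest and highest clusters of each sequence were found in both replicates. 2RHet:1277711-1336282, the longest heterochromatin cluster at 58572 bp, scored 2.96 in the combined list and stood as 2 clusters in replicate 1 and 4 in replicate 2. On 3RHet a single cluster was both longest and highest, 3RHet:1678010-1706306, at 28297 bp, with a score of 2.83 in the combined list, 2.85 in replicate 1 and 2.85 in replicate 2. It was the only 3RHet cluster of the longest class above the arm median, by 0.98.

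XHet carried its clusters in its lower part, all within the first 88384 of its 204112 bp. XHet:63074-75565 was the longest, at 12492 bp, and the highest, with a score of 1.92 in the combined list. It stood as 2 clusters in each replicate, the larger of which scored 1.98 in replicate 1 and 2.22 in replicate 2. XHet:80275-83894 scored 1.56, XHet:56724-59600 scored 0.95 and XHet:86137-88384 scored 0.70, and each was found in both replicates. XHet:60305-62443, at 0.50, and XHet:12161-13611, at 0.40, were found in replicate 1 alone. XHet:14705-15709, at 0.71, and XHet:18401-19491, at 0.74, were in neither. The upper group of 5 thus had 4 clusters in both replicates, and the lower group of 3 had none.

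2LHet began with a run of 3 clusters over 40.8 kb. 2LHet:20-13786 scored 2.45, the highest there, with 2.51 in replicate 1 and 2.42 in replicate 2. 2LHet:15329-33363, the longest at 18035 bp, scored 1.91, and 2LHet:33910-40820 scored 1.79. Replicate lists covered 94.1% and 93.8% of this run. Of the other clusters, 2LHet:165509-167745 scored 0.54 and 2LHet:237517-242470 scored 1.05, both found in both replicates, and 2LHet:49287-50366 scored 0.60 and was in neither.

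Between clusters lay long empty stretches, defined as 100 kb or more without a combined-list cluster, sequence ends included. Heterochromatin had 26 of them, totalling 5096 kb or 54.9% of its length, against 30.4% of the large arms. In replicate 1 the empty share was 63.6% of heterochromatin and 32.6% of the arms, and in replicate 2 it was 67.3% and 32.9%. Outside these stretches, clusters covered 33.8% of heterochromatin and 33.2% of the arms. In the combined list the covered shares were thus alike once empty stretches were set aside. In the replicates the rest was covered over 38.6% in each, against 30.8% and 29.7% on the arms. Stretches without placed reads and stretches without the mark cannot be told apart in these lists.

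The empty share was 99.7% for YHet, 82.0% for 3RHet, 65.5% for 2LHet, 56.7% for XHet, 49.8% for 3LHet and 32.1% for 2RHet. The longest stretch, 3RHet:122641-787279, is 664.6 kb long, and the next, 3RHet:2030754-2517507, runs for 486.8 kb to the end of the sequence. 2RHet:2359937-2776730 measures 416.8 kb, 3RHet:874388-1146575 measures 272.2 kb and 3LHet:968174-1218076 measures 249.9 kb. In the combined list, 3 of the 5 longest thus lay on 3RHet. The replicates gave longer stretches, up to 787.5 kb and 787.6 kb on 3RHet and up to 489.4 kb and 492.9 kb on 3LHet. The clusters on either side of 3LHet:968174-1218076 were found in neither replicate. On YHet a single cluster separated stretches of 154.8 kb and 191.3 kb.

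Few replicate clusters lie outside the combined list, so these stretches could hold little from the replicates by construction. Of the 26, 15 held no base of a cluster of either replicate, and 10 more were entered only at an edge, by 204 bp at most. The exception, 3LHet:436809-606772, holds 1 whole cluster of replicate 2, 3LHet:469150-470620, with a score of 0.67.

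2RHet, 3LHet and 3RHet were long enough to divide into blocks of 500 kb, and coverage was uneven along all of them. On 3RHet the first 3 blocks were covered over 0.226%, 1.19% and 1.08%, the block 3RHet:1500001-2000000 over 22.6%, and the next over 4.68%. That block held 12 clusters in the combined list and 12 in each replicate, with coverage of 21.3% and 19.7% in the replicates. On 2RHet the covered share was 3.68% between 500001 and 1000000, 32.5% in the following block and 44.8% in the last 288.8 kb. On 3LHet it was 1.66% between 500001 and 1000000 and 43.8% between 2000001 and 2500000.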

How the data were processed

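The data were 3 lists of regions, 1 for each ChIP replicate and 1 combined. The authors deposited a score for every region without naming its scale. The build, FlyBase r5, is as stated per the file headers, and the submitters' processing notes name Bowtie 0.12.7. What called the regions, at which threshold, with which read filters and inputs, and how replicates were combined is not given in the sources used. Library depth is unknown.

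Covered shares used the sequence lengths of the file headers. Length classes, runs, empty stretches and overlap followed the definitions given with the results. Scores of different sequences were compared only within a list. The scores of clusters found in both replicates were also set against one another between the replicate lists, each with its own constant. Scores were tested for being log2 ratios of whole numbers, and the procedures were checked on simulated data. Computation used Python 3.11.15, numpy 2.4.6, pandas 2.3.3 and SciPy 1.17.1, and figures matplotlib 3.10.9.

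Regions were named by rule: the 5 longest runs and empty stretches, the highest and longest cluster of each sequence, the 5 clusters farthest above and below their class median, and every cluster of a sequence with 10 or fewer. The clusters and these definitions were chosen with earlier results of these data known. No sequences are printed.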

Additional observations from a re-analysis of the deposited data

Results flagged for a closer look

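2LHet stood apart from 3 other sequences in the score difference from the large arms. All differences below are means of the replicates, and they were picked out because 2LHet was negative in both replicates while the other sequence was positive in both. 2LHet was lower than 2RHet (−0.53), 3LHet (−0.28) and XHet (−0.20). These differences between sequences were not tested. 2LHet rests on 5 clusters in each replicate, and its value in the combined list was positive.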

How the results depend on the processing

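No paired analysis was possible because the input samples, which share replicate numbers with the ChIP samples, have no lists. Taking single replicate lists, the score difference from the arms ran from 0.19 to 0.26, the covered share from 12.7 to 14.1%, the share in runs from 49.7 to 50.3%, the empty share from 63.6 to 67.3% and the count of clusters from 163 to 171. The score difference was −0.36 against U, 0.10 without 2RHet, 0.11 among the highest 50% of scores, 0.17 among clusters of at least the replicate minimum length, and 0.20 with 10 classes or 100 arm clusters nearest in length. It was 0.12 for clusters found in both replicates and 0.19 for second numbers of 20 or more, both chosen after seeing the data. Without 2RHet, 108 clusters remained, covering 11.4%, with 34.3% in runs and 67.4% empty. The highest 50% of scores covered 13.7%, with 38.7% in runs and 65.5% empty. With that minimum length, 76.6% were in both replicates, 35.7% in runs and 62.9% empty. The share in runs was 23.1% after merging clusters under 1 kb apart, 26.7% with gaps of at most 2 kb and 62.4% with 10 kb. Stretches of 50 kb or more made up 70.5% and of 200 kb or more 27.6%. By sequence, the sign turned for 2LHet in each replicate (−0.13 and −0.054). For 3RHet it turned in replicate 2 (0.0071, against −0.24 in replicate 1), with 10 classes (0.068) and with 100 nearest clusters (0.056). The causes of these shifts were not tested. Depth is unknown.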
